A study of Homo sapiens with 15 samples.

Results

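The sites described here are those of the transcription factor RUNX1 and of the cohesin subunit SMC3 in TF-1 cells that express wild-type (WT) RAD21, taken from the authors' pooled peak list of each target on chromosomes 1 to 22. A site was called joint where a RUNX1 peak and an SMC3 peak overlapped by at least 1 bp, and RUNX1-only or SMC3-only where no peak of the other target overlapped. The lists held 9399 RUNX1 peaks and 41215 SMC3 peaks on the autosomes, which joined into 45920 regions. Of these, 4579 (9.97%) were joint, 4781 (10.4%) were RUNX1-only and 36560 (79.6%) were SMC3-only. The series as a whole holds 198298 peaks in 6 lists.

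TF-1 is a human erythroleukemia cell line that grows with cytokines. By the labels it was transduced with an inducible vector for WT RAD21 or for RAD21 Q592*, which ends early at a stop codon, and every sample of both lines received doxycycline for 6 days. The WT groups are RUNX1 ChIP (2 libraries), SMC3 ChIP (2), GATA2 ChIP (2) and input (2). The Q592* lists used as a further readout come from RUNX1 ChIP (1 library), SMC3 ChIP (2) and GATA2 ChIP (2). The labels name no removal of the cells' own RAD21 gene and do not say whether a line is 1 clone. Each target of a line has 1 list without values per library, so there is no replicate spread and no test. The intervals given are 95% Wilson intervals for percentages and 95% intervals from order statistics for medians, and both cover counting error only.

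RUNX1 binds DNA together with its partner CBFB and sets the gene programs of blood stem and progenitor cells, mostly from enhancers and promoters. Cohesin is the ring complex of SMC1A, SMC3, RAD21 and a STAG subunit, which embraces DNA, extrudes loops and holds sister chromatids together. Most strong cohesin sites in mammalian cells are places where loop extrusion is stopped by CTCF, a zinc finger protein that marks loop anchors. Weaker cohesin signal is known at active enhancers and promoters, where the loading factor NIPBL and transcription factors are found. CTCF was not among the targets of the series. Neither genes nor sequences are given for the sites, because the annotation and sequence of build hg19, to which the peaks belong, were not used here.

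The WT lists were of unequal length and strength. RUNX1 peaks had a median fold enrichment of 4.42 and a median −log10 q of 11.1, and SMC3 peaks had medians of 5.16 and 18.4. Both of these values per peak are the authors', for the summit of the peak, and they served to rank peaks within a list. The lowest −log10 q on the autosomes was 2.05 for RUNX1 and 2.01 for SMC3, so weaker places cannot be seen. The lists carry no read totals. The local background at each summit could be recovered from the deposited fold and −log10 p, and its most frequent value was 4.46 reads in the RUNX1 list and 4.05 in the SMC3 list.

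SMC3 was found at close to every other RUNX1 peak, while RUNX1 was found at few SMC3 peaks. Of the RUNX1 peaks 4618 of 9399 overlapped an SMC3 peak, which is 49.1% (48.1 to 50.1%). Of the SMC3 peaks 4655 of 41215 overlapped a RUNX1 peak, which is 11.3% (11.0 to 11.6%). As a comparator measured in the same line, 26.4% of the 38063 autosomal GATA2 peaks overlapped an SMC3 peak. GATA2 is the zinc finger factor that maintains blood stem and progenitor cells. When the GATA2 list was trimmed to its 9399 strongest peaks, to equal the RUNX1 list in length, 54.9% (53.9 to 56.0%) overlapped SMC3. The RUNX1 share was therefore above that of the whole GATA2 list and below that of the equally long one. The trimmed GATA2 list kept only its strongest peaks, while the RUNX1 list was whole, so strength was not matched.

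The joint sites were simple in structure. In 4472 of the 4579 sites a single RUNX1 peak met a single SMC3 peak. Several RUNX1 peaks lay in 38 sites and several SMC3 peaks in 75, and no site held more than 4 peaks. The overlap had a median length of 193 bp, with quartiles of 148 and 264 bp. Few sites lay near the 1 bp limit. Of the 4694 overlapping pairs 14 overlapped by at most 10 bp, and 9 of the 4781 RUNX1-only peaks had an SMC3 peak within 10 bp of their edge. A stricter rule mattered more, since a reciprocal overlap of 50% left 3189 joint sites and 33.9% of the RUNX1 peaks with SMC3.

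The chance of a RUNX1 peak to carry SMC3 rose with the strength of RUNX1. Each list was divided into deciles of the authors' −log10 q, with decile 1 the weakest. SMC3 overlapped 40.1% (37.0 to 43.3%) of the RUNX1 peaks of decile 1 and 40.1% (37.0 to 43.3%) of those of decile 4. It overlapped 47.4% (44.2 to 50.6%) in decile 6, 59.8% (56.6 to 62.9%) in decile 9 and 75.5% (72.7 to 78.2%) in decile 10. The weaker deciles 1 to 4 lay between 39.4% and 41.8%, so the share differed little over the weaker part of the list. Of the 100 strongest RUNX1 peaks 87 were joint, and of the 500 strongest 410.

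For SMC3 the order was the opposite, and RUNX1 was concentrated in the weaker part of the list. RUNX1 overlapped 18.1% (17.0 to 19.3%) of the SMC3 peaks of decile 1 and 20.8% (19.6 to 22.1%) of those of decile 3. The share dropped to 7.98% (7.20 to 8.85%) in decile 6 and to 1.46% (1.13 to 1.87%) in decile 9. It was 2.77% (2.31 to 3.31%) in decile 10, where the interval did not meet that of decile 9. Of the 100 strongest SMC3 peaks 4 were joint, and of the 500 strongest 18. With the SMC3 list trimmed to its 9399 strongest peaks, 2.14% of the RUNX1 peaks were joint and 193 joint sites were left.

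**Figure D1:**
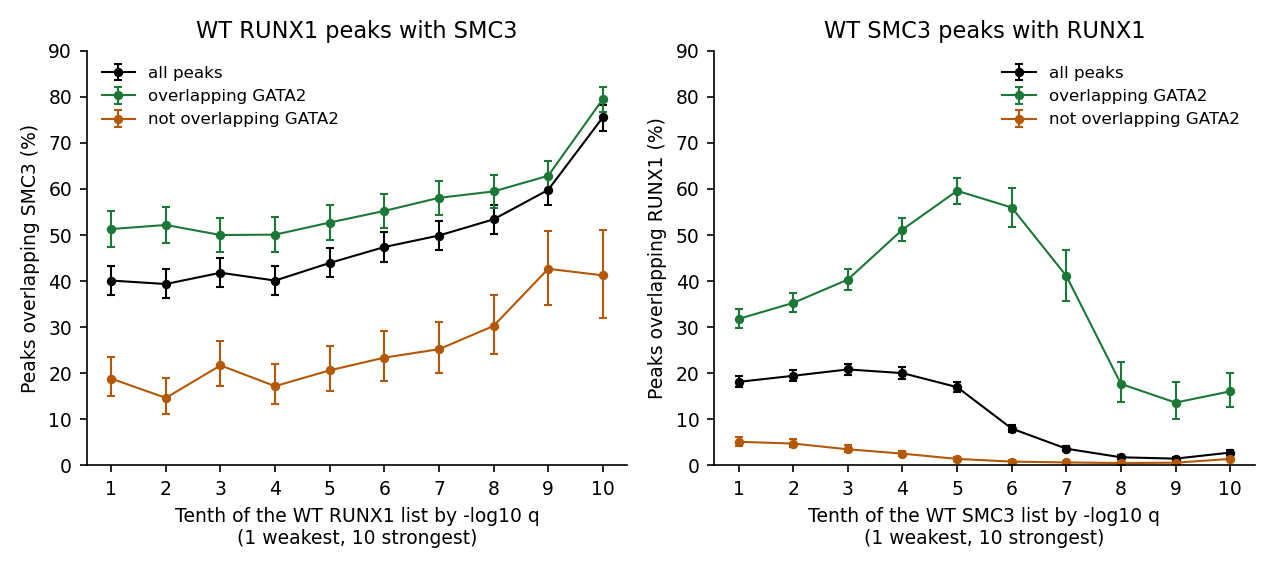
Percentage of WT RUNX1 peaks that overlap SMC3 (left) and of WT SMC3 peaks that overlap RUNX1 (right), by decile of −log10 q in the own list, for all peaks and split by overlap with WT GATA2. Points are percentages and bars are 95% Wilson intervals. In decile 10 the left curves stand at 75.5% for all peaks, 79.5% with GATA2 and 41.2% without it. The right black curve is below 3% from decile 8 on.

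Joint peaks were wider in the median than single peaks for both targets. Joint RUNX1 peaks had a median width of 252 bp and RUNX1-only peaks of 196 bp. Joint SMC3 peaks had a median of 287 bp and SMC3-only peaks of 267 bp. A wider peak meets more neighbours, so the shares were also computed from summits within 200 bp of each other, a rule that does not use width. By that rule, 36.1% (33.1 to 39.2%) of the RUNX1 peaks of decile 1 and 71.5% (68.5 to 74.3%) of those of decile 10 had SMC3. The corresponding shares of SMC3 peaks with RUNX1 were 17.2% (16.1 to 18.4%) and 2.23% (1.82 to 2.73%).

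By their medians, RUNX1 was somewhat stronger and SMC3 weaker at joint than at single sites. Joint RUNX1 peaks had a median −log10 q of 13.2 (quartiles 7.42 and 25.7), against 9.63 (6.15 and 16.2) for RUNX1-only peaks. Joint SMC3 peaks had a median −log10 q of 8.79 (5.72 and 14.1), against 21.9 (8.21 and 56.8) for SMC3-only peaks. In fold enrichment the medians were 4.73 at joint and 4.17 at single RUNX1 peaks, and 4.02 at joint and 5.44 at single SMC3 peaks. The quartile ranges of joint and single peaks overlapped for both targets. Of the joint sites 84.2% (83.1 to 85.2%) had their SMC3 peak in the weaker deciles 1 to 5, while 58.5% (57.0 to 59.9%) had their RUNX1 peak in the stronger deciles 6 to 10 and 15.5% (14.5 to 16.6%) in decile 10.

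The summits of RUNX1 and SMC3 lay close to each other at joint sites. With the strongest peak of each target taken per site, the median distance between summits was 54 bp (51 to 56 bp), with quartiles of 23 and 108 bp. The summits were within 50 bp at 47.7% of the sites, within 100 bp at 72.7% and within 200 bp at 91.9%, and the largest distance was 1089 bp. The SMC3 summit lay inside the RUNX1 peak at 3823 sites (83.5%). It was at the lower coordinate in 2284 sites, at the higher in 2268 and at the same base in 27. The average chromatin fragment was 200 to 400 bp long by the labels, so most of these distances, though not all, were below the length of a fragment.

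The spacing depended little on strength, except at the strongest SMC3 peaks. By quartile of SMC3 strength, weakest first, the medians were 58, 49, 56 and 62 bp. Within 200 bp lay 93.3%, 93.4%, 86.6% and 77.0% of the sites of these quartiles. The strongest SMC3 quartile held 209 joint sites, and 10% of them had summits more than 488 bp apart, compared with 174 bp in the weakest quartile. The median width of the joint SMC3 peaks was 215, 316, 476 and 608 bp in these quartiles, and the part of width in the spacing was not tested. By quartile of RUNX1 strength the medians were 61, 52, 54 and 50 bp.

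At most joint sites GATA2 was present too, and there, by the medians, its summit was nearer to that of RUNX1 than to that of SMC3. A GATA2 peak that overlapped both the RUNX1 and the SMC3 peak was found at 4022 joint sites. The median distance was 38 bp (36 to 39 bp) from RUNX1 to GATA2, 57 bp (54 to 59 bp) from SMC3 to GATA2 and 55 bp (52 to 57 bp) from RUNX1 to SMC3. All of these distances come from the same 4022 sites, so their intervals are not independent of each other. RUNX1 and GATA2 formed the closest pair at 1836 sites (45.7%), RUNX1 and SMC3 at 1112 (27.6%) and SMC3 and GATA2 at 1027 (25.5%), with 47 ties. At the 521 joint sites where GATA2 was on neither peak, the summits of RUNX1 and SMC3 were 41 bp (37 to 46 bp) apart in the median.

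**Figure D2:**
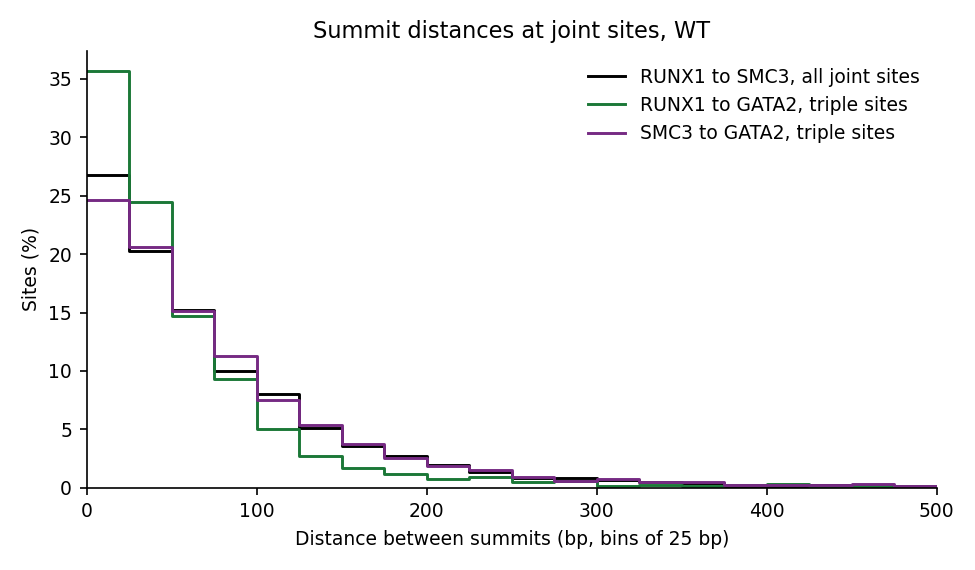
Distance in bp between the summits of RUNX1 and SMC3 at all 4579 joint sites, and between GATA2 and each of them at the 4022 joint sites with a GATA2 peak on both, as percentages of sites per bin of 25 bp. Distances beyond 500 bp are not drawn; the RUNX1 to GATA2 curve is the highest in the first bins, and the other curves run nearly together.

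The strength of RUNX1 and of SMC3 at a joint site agreed weakly in rank. Over the 4579 sites Spearman's rank correlation of −log10 q was 0.126 and Pearson's r of its log10 was 0.086. These are descriptions without a p-value, since the sites share libraries, background and depth. At the 4022 sites with all 3 targets the rank correlation was 0.139 for RUNX1 with SMC3, 0.239 for RUNX1 with GATA2 and 0.263 for SMC3 with GATA2. The pair of RUNX1 and SMC3 thus had the lowest value of the 3. Within quartiles of SMC3 strength the rank correlation was 0.039, 0.101, 0.049 and -0.086, weakest first.

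The value depended on the measure of strength. The rank correlation was 0.241 with the fold enrichment and 0.499 with the recovered pileup at the summit, the number of ChIP fragments over it on the scale of the background. The local background of the lists was itself closely alike at these sites, with a rank correlation of 0.892, and the pileup contains it. At the 2067 sites whose background was below the median of both lists, the rank correlation of the pileup was 0.208 and that of −log10 q was 0.139. With the background subtracted from the pileup, an alternative added after seeing the data, the rank correlation was 0.348 over all joint sites. With a −log10 q of at least 10 in both lists, the rank correlation of −log10 q was -0.00091 over the 1322 sites left.

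The counts of joint sites by strength in both lists were uneven. Joint sites of the strongest RUNX1 quartile had SMC3 peaks of the weakest quartile at 532 sites, of the next at 732, of the next at 219 and of the strongest at 44. For the weakest RUNX1 quartile these counts were 466, 327, 88 and 48. The weakest SMC3 quartile thus made up 34.8% of the joint sites of the strongest RUNX1 quartile and 50.2% of those of the weakest. For the next SMC3 quartile these shares were 47.9% and 35.2%, and for the one after 14.3% and 9.47%. Only the strongest SMC3 quartile went against this shift towards stronger SMC3, with 2.88% and 5.17%. Of the 4579 joint sites 709 had RUNX1 in decile 10, 114 had SMC3 in decile 10, and 7 had both.

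**Figure D3:**
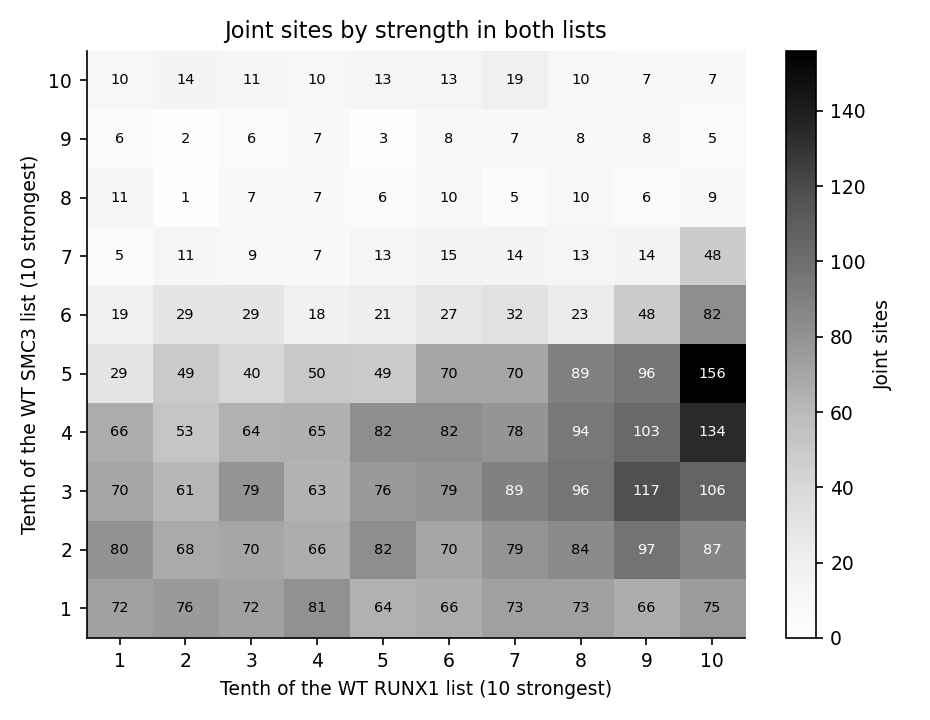
Number of joint sites by decile of WT RUNX1 strength (horizontal) and of WT SMC3 strength (vertical), both by −log10 q within the list, with darker cells for more sites. The fullest cell, with 156 sites, pairs RUNX1 decile 10 with SMC3 decile 5, and the top row, SMC3 decile 10, holds 114 sites in all.

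The joint site that ranked best in its weaker target lay on chromosome 21 from 30117250 to 30118388. Its RUNX1 peak had a −log10 q of 44.9 and a fold of 9.22 (rank 656 in the list), and its SMC3 peak had 254.2 and 32.5 (rank 63), with summits 671 bp apart. The next was on chromosome 2 from 134875817 to 134876445, with RUNX1 at a fold of 9.24 (rank 224), SMC3 at 16.6 (rank 711) and summits 124 bp apart. GATA2 was called at both of these. The third, on chromosome 1 from 31895426 to 31896000, had RUNX1 at a fold of 5.55 (rank 750), SMC3 at 17.5 (rank 242) and summits 30 bp apart, and carried no GATA2 peak. Sites on chromosome 12 from 57381175 to 57382533 and on chromosome 3 from 185694773 to 185695622 followed, with RUNX1 ranks of 783 and 181 and SMC3 ranks of 923 and 973. Their summits were 760 and 457 bp apart. At 3 of these first 5 sites the summits were thus farther apart than 184 bp, the distance that 90% of all joint sites did not exceed. Wide spacing was more common in the strongest SMC3 quartile, to which all 5 belong. There the upper quartile of the distance was 192 bp, against 108 bp over all joint sites.

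Of the remaining 5 of the 10 leading joint sites, 4 had no GATA2 peak and all 5 had summits within 79 bp of each other. Without GATA2 were the sites on chromosome 7 from 35749046 to 35749509 (22 bp between summits), chromosome 10 from 90595268 to 90596015 (17 bp), chromosome 2 from 179279292 to 179279860 (5 bp) and chromosome 22 from 29225265 to 29225777 (15 bp). The site on chromosome 3 from 178733181 to 178733864 carried GATA2. In the strongest quartile of each list, GATA2 was at 57.4% of the joint SMC3 peaks and at 91.5% of the joint RUNX1 peaks. Summits lay within 100 bp of each other at 72.7% of all joint sites. RUNX1 and SMC3 were called in Q592* at all 10 leading sites, as at nearly all peaks of this strength: Q592* RUNX1 was at 99.2% of the joint RUNX1 peaks and Q592* SMC3 at 100% of the joint SMC3 peaks of the strongest quartile. The local background of the RUNX1 peaks was 0.631 to 2.52 times the list's median, so none lay in a place of high background as defined further on.

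At the discordant extremes one target was near the top of its list and the other near the bottom. The largest differences with strong RUNX1 were on chromosome 2 from 64581852 to 64582307 (RUNX1 fold 13.3, rank 59; SMC3 fold 2.32, rank 41090), on chromosome 6 from 134022649 to 134023335 (RUNX1 10.5, rank 105; SMC3 2.27, rank 41012) and on chromosome 11 from 32077963 to 32078344 (RUNX1 15.0, rank 135; SMC3 2.45, rank 41031). At these 3 sites RUNX1 was called in Q592* and SMC3 was not, where Q592* SMC3 was at 28.7% of the joint SMC3 peaks of the weakest quartile. With weak RUNX1 and strong SMC3, the leading sites were on chromosome 2 from 37641574 to 37642958 (RUNX1 fold 1.93, SMC3 15.6), on chromosome 13 from 91785908 to 91787526 (2.15 and 15.1) and on chromosome 6 from 108862982 to 108863875 (2.69 and 21.8). Their summits were 836, 357 and 117 bp apart, and their RUNX1 background was 3.32, 2.90 and 1.44 times the list's median. The first thus lay in a place of high background as defined further on. At the 3 sites with strong RUNX1 the summits were 115, 4 and 118 bp apart, with a RUNX1 background of 1.32, 1.64 and 0.757 times. SMC3 was called in Q592* at all 3 sites with weak RUNX1, and RUNX1 at the first and the last of them, where Q592* RUNX1 was at 62.1% of the joint RUNX1 peaks of the weakest quartile. GATA2 was called in WT at all 6 discordant sites, near its share of 88.3% of all joint RUNX1 peaks.

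RUNX1 peaks without SMC3 were strong in places too. The strongest RUNX1-only peak, on chromosome 10 from 96059117 to 96059662, held rank 3 of the whole list, with a fold of 23.4 and a −log10 q of 249.2, and its nearest SMC3 summit was 19.4 kb away. It was followed by peaks on chromosome 17 from 4110193 to 4110649 (fold 20.8, nearest SMC3 at 7.16 kb) and on chromosome 9 from 126817057 to 126817427 (fold 15.8, 13.8 kb). The remaining 2 of the leading 5 were on chromosome 6 from 137354980 to 137355398 (fold 19.8, 20.1 kb) and on chromosome 19 from 17517123 to 17517437 (fold 6.97, 11.3 kb). All 5 carried GATA2 in WT and RUNX1 in Q592*, and none carried SMC3 in Q592*. Of all RUNX1-only peaks of the strongest quartile 75.7% carried GATA2 in WT, 99.8% RUNX1 in Q592* and 7.18% SMC3 in Q592*, so these counts are common among strong RUNX1-only peaks. The last had a local background of 4.81 times the list's median, and the others 0.837 to 1.61 times.

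The strongest SMC3-only peaks held the top 5 ranks of the SMC3 list. They lay on chromosome 10 from 97360588 to 97361424 (fold 44.2), chromosome 6 from 73121772 to 73122618 (29.6), chromosome 17 from 32526893 to 32527618 (26.1), chromosome 1 from 159975785 to 159976561 (46.1) and chromosome 3 from 170131852 to 170132665 (22.5). Their nearest RUNX1 summits were 28.6 to 148.8 kb away. None carried GATA2 in WT or RUNX1 in Q592*, and all carried SMC3 in Q592*. Of all SMC3-only peaks of the strongest quartile 6.90% carried GATA2 in WT, 2.33% RUNX1 in Q592* and 100% SMC3 in Q592*, so the counts are not particular to these 5.

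By their medians, single RUNX1 peaks lay about as far from the nearest cohesin site as GATA2 peaks without cohesin did. The median distance from a RUNX1-only summit to the nearest SMC3 summit was 13.4 kb (12.8 to 14.1 kb), with quartiles of 4.71 and 31.2 kb. For the 28007 GATA2 peaks without SMC3 the median was 13.7 kb (13.4 to 14.0 kb), with quartiles of 4.87 and 31.1 kb. Within 5 kb of an SMC3 summit lay 25.8% (24.6 to 27.1%) of the RUNX1-only and 25.5% (25.0 to 26.0%) of these GATA2 peaks. Within 1 kb the shares were 7.89% (7.16 to 8.68%) and 6.29% (6.01 to 6.58%), and these intervals did not meet. RUNX1-only peaks with GATA2 and without it had medians of 13.6 kb (12.8 to 14.5 kb) and 13.3 kb (12.0 to 14.5 kb). By quartile of RUNX1 strength the medians ran from 12.6 to 14.2 kb, with overlapping intervals.

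From the side of cohesin the nearest RUNX1 peak was farther away, in a list that is shorter. The median distance from an SMC3-only summit to the nearest RUNX1 summit was 74.5 kb (73.1 to 75.9 kb), with quartiles of 24.8 and 196.9 kb. By quartile of SMC3 strength, weakest first, the medians were 41.4, 78.0, 107.7 and 78.1 kb. Weak SMC3-only peaks thus lay nearest to RUNX1, and 5.76% (5.28 to 6.28%) of the weakest quartile had a RUNX1 summit within 1 kb, against 0.396% (0.291 to 0.539%) of the strongest.

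**Figure D4:**
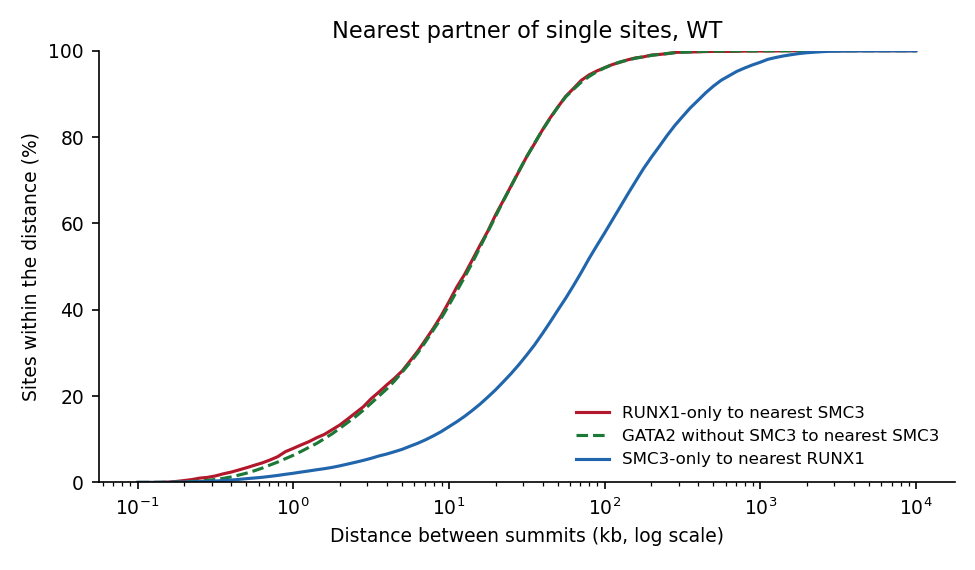
Percentage of single sites whose nearest partner summit lies within a given distance in kb (log axis), for RUNX1-only peaks and GATA2 peaks without SMC3 (distance to SMC3) and for SMC3-only peaks (distance to RUNX1), all in WT. The curves of RUNX1-only and of GATA2 nearly coincide beyond about 5 kb, and the median of the SMC3-only curve is at 74.5 kb.

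Joint sites lay nearer to each other than single RUNX1 peaks lay to them. The median distance from a joint site to the next joint site was 56.1 kb (52.7 to 59.6 kb), and that from a RUNX1-only peak to the nearest joint site was 124 kb (115 to 133 kb). Another joint site was found within 10 kb of 20.2% (19.1 to 21.4%) of the joint sites, and a joint site within 10 kb of 11.6% (10.7 to 12.5%) of the RUNX1-only peaks.

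GATA2 was present at most joint sites and at few SMC3-only sites. GATA2 was called at 74.9% of all RUNX1 peaks and at 25.0% of all SMC3 peaks. It overlapped 88.3% (87.3 to 89.2%) of the joint RUNX1 peaks and 62.0% (60.6 to 63.4%) of the RUNX1-only peaks. It overlapped 88.4% (87.4 to 89.3%) of the joint SMC3 peaks and 17.0% (16.6 to 17.4%) of the SMC3-only peaks. The gap was present in every quartile of RUNX1 strength, with 85.2% and 54.0% in the weakest quartile and 91.5% and 75.7% in the strongest for joint and RUNX1-only peaks. For SMC3 the share depended on strength: by quartile, weakest first, GATA2 was at 39.3%, 20.4%, 5.42% and 6.90% of the SMC3-only peaks and at 87.2%, 92.8%, 88.9% and 57.4% of the joint ones. The joint share was the higher in each quartile.

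Read the other way, SMC3 was at 57.9% (56.7 to 59.1%) of the RUNX1 peaks with GATA2 and at 23.0% (21.3 to 24.7%) of those without it. RUNX1 peaks without GATA2 had less SMC3 in each of the 10 deciles of RUNX1 strength, with 18.8% (14.9 to 23.4%) in decile 1 and 41.2% (32.0 to 51.2%) in decile 10. With GATA2 the shares of these deciles were 51.3% (47.4 to 55.2%) and 79.5% (76.6 to 82.1%). Over all GATA2 peaks, not split by strength, SMC3 was at 58.6% (57.4 to 59.8%) of those with RUNX1 and at 19.2% (18.8 to 19.7%) of those without. SMC3 was at 54.9% of the 9399 strongest GATA2 peaks, with or without RUNX1. The part of GATA2 strength in this gap was not tested.

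Among SMC3 peaks the share with RUNX1 was 39.9% (38.9 to 40.8%) where GATA2 was present and 1.75% (1.61 to 1.90%) where it was absent. Where GATA2 was present this share was highest in the middle of the list, with 31.8% (29.8 to 33.9%) in decile 1, 59.6% (56.7 to 62.5%) in decile 5 and 13.6% (10.1 to 18.1%) in decile 9. The strongest SMC3 quartile stood apart among the joint sites. GATA2 overlapped 57.4% (50.6 to 63.9%) of its 209 joint SMC3 peaks, against 87.2% to 92.8% in the other quartiles. It was still more frequent there than at the SMC3-only peaks of the same quartile, of which 6.90% (6.43 to 7.42%) carried GATA2.

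In the Q592* line, RUNX1 was called at most WT joint sites, and SMC3 at about every other one. Of all WT RUNX1 peaks 82.8% overlapped a Q592* RUNX1 peak and 27.7% a Q592* SMC3 peak. Of the 4618 joint RUNX1 peaks 86.9% (85.9 to 87.9%) overlapped Q592* RUNX1 and 50.8% (49.4 to 52.3%) Q592* SMC3. Both targets were called in Q592* at 2193 of them (47.5%), RUNX1 without SMC3 at 1822 (39.5%), SMC3 without RUNX1 at 155 (3.36%) and neither at 448 (9.70%). The Q592* SMC3 list is shorter, with 31878 autosomal peaks, and its RUNX1 list is longer, with 15216, and the part of list length in these counts was not tested. The effect of the RAD21 form and of the libraries cannot be told apart, as there is a single list for each target and line. By the labels that of Q592* RUNX1 rests on 1 library.

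The RUNX1-only sites of WT rarely carried an SMC3 call in Q592*. Of these 4781 peaks 5.38% (4.77 to 6.05%) overlapped a Q592* SMC3 peak and 78.9% (77.7 to 80.0%) a Q592* RUNX1 peak. Of the SMC3-only peaks 4.96% (4.75 to 5.19%) overlapped Q592* RUNX1, against 14.2% of all SMC3 peaks. Q592* GATA2 overlapped 89.0% (88.0 to 89.8%) of the joint and 69.4% (68.1 to 70.7%) of the RUNX1-only peaks, against 79.0% of all RUNX1 peaks.

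WT SMC3 peaks at RUNX1 were called in Q592* less often than those elsewhere, and the size and direction of the gap varied with strength in WT. Of all WT SMC3 peaks 70.6% overlapped a Q592* SMC3 peak. The share was 51.0% (49.5 to 52.4%) for joint and 73.1% (72.6 to 73.5%) for SMC3-only peaks, a difference of -22.1 percentage points. Within quartiles of WT SMC3 strength, weakest first, the joint share was 28.7%, 57.2%, 91.5% and 100%, and the single share 22.6%, 62.6%, 97.2% and 100%. The differences were 6.10, -5.37, -5.79 and 0 points, so the direction turned in the weakest quartile, and the strongest, with every peak called, allows no difference. A quartile does not match joint and single peaks in strength within itself. The share of SMC3 peaks with RUNX1 was 18.1% in decile 1 and 19.4% in decile 2, and 7.98% in decile 6 and 3.62% in decile 7. The part of such remaining strength in the quartile differences was not tested. With a −log10 q of at least 10 required in every list, the shares were 40.7% for joint and 84.0% for SMC3-only peaks, a wider gap than over all peaks. Such a threshold does not match these peaks in strength either. Over all SMC3 peaks the median −log10 q was 8.79 for joint and 21.9 for SMC3-only peaks. For RUNX1 the difference between joint and RUNX1-only peaks was 8.07 points over all peaks. Its quartile values were 9.77, 2.94, -0.13 and -0.54 points, where the upper quartiles had shares of 94.7% to 99.8% and little room to differ. At that threshold the RUNX1 shares were 90.2% and 90.1%.

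**Figure D5:**
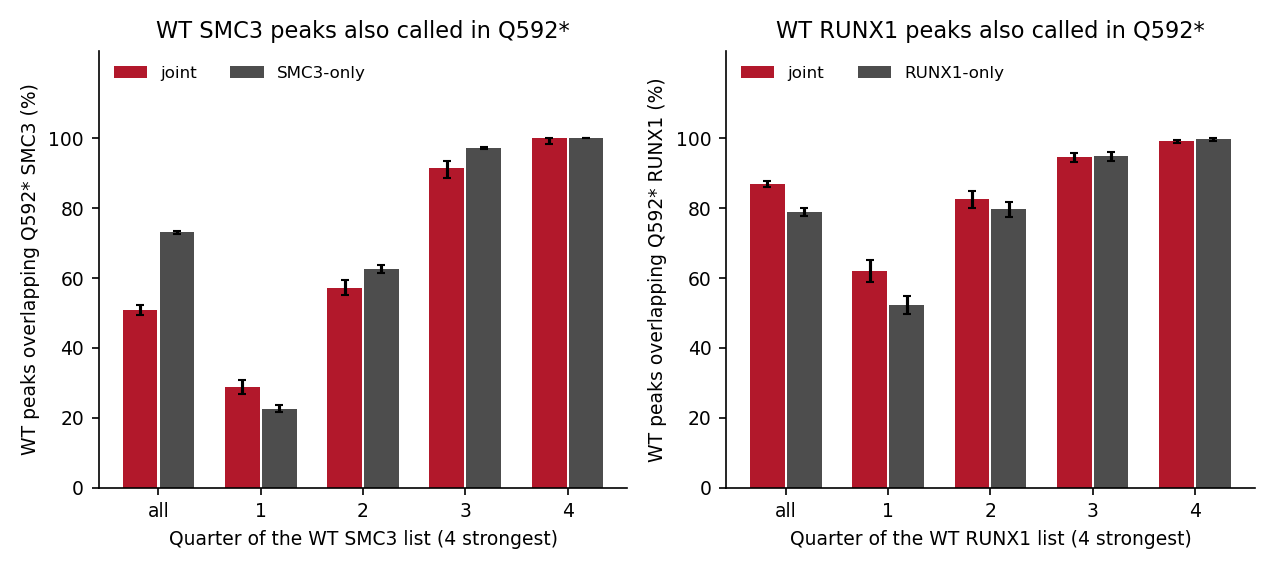
Percentage of WT SMC3 peaks that overlap a Q592* SMC3 peak (left) and of WT RUNX1 peaks that overlap a Q592* RUNX1 peak (right), for joint and single peaks, over all peaks and by quartile of WT −log10 q (4 strongest). Bars are percentages with 95% Wilson intervals; the gap of 22.1 points over all SMC3 peaks is at most 6.10 points in size within a quartile.

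Places of high local background can be called with any antibody. A background of at least 3 times the median of the list was found at 5.86% of all RUNX1 peaks and at 10.2% of all SMC3 peaks. It was found at 5.26% (4.65 to 5.94%) of the joint and 6.44% (5.78 to 7.17%) of the RUNX1-only peaks, and at 4.62% (4.05 to 5.26%) of the joint and 10.9% (10.6 to 11.2%) of the SMC3-only peaks. Without these peaks 49.2% of the RUNX1 peaks were joint, against 49.1% with them.

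Some of the fullest windows were such places. Joint sites were spread over 1542 windows of 1 Mb with a median of 2 sites each, and 46 windows held 10 or more. The fullest window, on chromosome 16 from 46 to 47 Mb, held 37 joint sites, with a median background of 5.45 times the list's median for RUNX1 and 4.36 times for SMC3. The next was on chromosome 13 from 91 to 92 Mb, with 28 joint sites among 61 RUNX1 and 78 SMC3 peaks, and a background of 1.48 and 1.49 times. It was followed by the window on chromosome 4 from 49 to 50 Mb, with 20 joint sites among 22 RUNX1 peaks and a background of 1.58 and 1.32 times. Beyond the windows of the naming rule, the next was on chromosome 10 from 42 to 43 Mb. It held 16 joint sites among 19 RUNX1 peaks, with a background of 7.83 and 6.15 times. The part of background or copy number in these windows was not tested.

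The joint share varied moderately over the 22 autosomes. It ran from 39.0% (32.3 to 46.2%) of the RUNX1 peaks on chromosome 20 to 54.8% (51.5 to 58.1%) on chromosome 2, and from 5.67% of the SMC3 peaks on chromosome 19 to 15.2% on chromosome 13. Chromosome 13 had the fewest SMC3 peaks per RUNX1 peak, at 2.69, and chromosome 19 the most, at 7.22. In the segment of chromosome 13 from 75 to 100 Mb, 39.4% (34.2 to 44.9%) of the 317 RUNX1 peaks were joint, against 49.5% (48.4 to 50.5%) elsewhere, and 20.6% of its 603 SMC3 peaks, against 11.2% elsewhere.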

How the data were processed

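The 6 peak lists were deposited as 1 list per line and target. They were made by the authors with Bowtie2, Picard and MACS2 on build hg19, per the submitters' processing notes, without stated versions or settings. Every peak name holds the word merge, and each list was read as a call on all libraries of its group. For Q592* RUNX1 the labels give only 1 library, although its peak names hold that word too. The deposited fold is a ratio of ChIP to local background at the summit. The −log10 q-value and −log10 p-value of the summit were also taken as deposited by the authors. The summit is the deposited start plus the offset. Coordinates are counted from 1.

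Computed here were overlaps of at least 1 bp, summit distances, ranks and nearest partners on the autosomes. A joint site is a connected group of overlapping peaks, described by its strongest peak of each target. Local background and pileup were solved from fold = (pileup + 1)/(background + 1) and the Poisson p, within a few reads and tested on simulated data. A whole count solved both equations for 99.8% of RUNX1 and 99.0% of SMC3 peaks. The sites and rules were chosen with earlier results of these data known.

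Named positions follow a rule: the 10 joint sites best in the worse of both ranks, the 5 strongest single sites per target, the 3 most discordant sites in each direction and the 3 fullest windows, outside chromosome 8. Planned gene lists and motifs need hg19 annotation or sequence and were not run. The tools were scipy 1.17.1, matplotlib 3.10.9, pandas 2.3.3 and numpy 2.4.6 under Python 3.11.15.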

Additional observations from a re-analysis of the deposited data

How the results depend on the processing

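No paired analysis was possible because each list is a single call without values per library, and for the same reason no library could be left out. All alternatives were planned except the pileup without background, the trimmed GATA2 list and the summit rule by decile, which were added after seeing the data. Of 69 alternative values 25 stayed within the counting interval (or 1.5 times a count), 43 moved and 1 changed sign; causes were not tested beyond the shorter lists that a threshold or trimming makes. Depth and the lists' thresholds limit all counts of weak sites, and the medians of distance to the nearest partner were larger with each shorter list tried.

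A −log10 q of at least 10 left 1322 joint sites, with SMC3 at 25.3% of RUNX1 and RUNX1 at 4.86% of SMC3 peaks, and a threshold of 20 left 231 joint, 2106 RUNX1-only and 19497 SMC3-only sites, with 9.88% and 1.18%. Trimming SMC3 to the RUNX1 length gave 193 joint, 9198 RUNX1-only and 9206 SMC3-only sites, with 2.14% and 2.05%. A reciprocal overlap of 50% gave 33.9% and 7.74%, summits within 200 bp 45.5% and 10.4%, and leaving out high background 11.8% of SMC3 peaks. The median summit distance was 50 bp at a threshold of 10 and 57 bp at 20. The rank correlation was 0.241 with the fold, 0.499 with the pileup, 0.348 with the pileup without background and -0.00091 at a threshold of 10, where it changed sign. At that threshold the median distance to the nearest partner was 20.5 kb for RUNX1-only and 142.9 kb for SMC3-only sites; trimming gave 64.3 and 76.7 kb.

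With summits within 200 bp GATA2 was at 84.7% of joint and 59.8% of single RUNX1 peaks and at 83.5% of joint and 15.2% of single SMC3 peaks; at a threshold of 10 these were 84.6%, 67.5%, 84.8% and 7.44%. Q592* SMC3 was at 47.3% of joint and 71.9% of single SMC3 peaks with the summit rule and at 40.7% and 84.0% at a threshold of 10, where Q592* RUNX1 was at 90.2% of joint and 90.1% of single RUNX1 peaks. The mean over quartiles of WT strength of the difference between joint and single peaks was -1.26 points for SMC3, against -22.1, and 3.01 points for RUNX1, against 8.07. These means decide nothing by their size, since the SMC3 quartiles ran from -5.79 to 6.10 points and the strongest quartiles were at or near 100%.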

Other observations

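On the sex chromosomes, which the comparisons leave out, the lists held 133 RUNX1 and 974 SMC3 peaks on X and 71 and 164 on Y. On X 39.1% of the RUNX1 peaks overlapped SMC3, and on Y 74.6%. On Y 18 of the 71 RUNX1 peaks had a local background of at least 3 times the list's median, against 3 of 133 on X.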
